A study of Bos taurus with 12 samples.

Results

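Pyruvate can enter mitochondria to become acetyl-CoA or oxaloacetate, and the genes described here encode the enzymes that make that choice and the enzymes that control it. They were 10 genes: PDHA1, PDHB, DLAT and PDHX of the pyruvate dehydrogenase complex (PDC), the kinases PDK1, PDK2, PDK3 and PDK4, the phosphatase PDP1, and pyruvate carboxylase (PC). A probe was assigned to a gene when the RefSeq transcript in its array annotation carried that gene's symbol. All 10 genes had at least 1 probe, 29 probes in all, among 12787 genes with a named probe.

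The samples were mammary gland biopsies of midlactation Holstein (HOLS) dairy cows, taken in turn from the left and right rear of the udder, and each RNA was measured on 1 one-colour bovine oligonucleotide array. The 6 CONT arrays held tissue of day 0, when cows ate a total mixed ration without limit, and the 6 REST arrays held tissue of the same cows on day 6 of a feed allowance set at 50% of their net energy requirement. The labels name 6 cows, whereas the series description counts 5 and the study's methods exclude 1 Holstein cow for mastitis without naming it. The fits were therefore repeated with every cow dropped once. All cows were restricted after their control period, so the diet and the elapsed days cannot be told apart.

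In the PDC, the E1 enzyme (PDHA1 with PDHB) decarboxylates pyruvate, E2 (DLAT) passes the acetyl group to coenzyme A, E3 (DLD) reoxidises the lipoyl arm, and the binding protein PDHX anchors E3 to the core. The PDKs switch the complex off by phosphorylating the E1 alpha subunit, the product of PDHA1, and the PDP phosphatases switch it on again. PDK4 is best known as the isoform induced in muscle and other tissues during fasting, when fatty acids replace glucose as fuel. PC carboxylates pyruvate to oxaloacetate, which refills the citric acid cycle. In ruminants, acetate from the rumen rather than glucose supplies most carbon for the fatty acids that the mammary gland makes itself.

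Signals are given on the log2 scale relative to the 75th percentile of each array, so that 0 is the signal at that percentile, and changes are REST minus CONT. Each probe has its own hybridisation efficiency, so signals of different probes are not compared with each other. Each slide held the CONT and REST arrays of 2 cows: slide 1 those of cows 1 and 2, slide 2 those of cows 3 and 4, slide 3 those of cows 5 and 6. Slide 3 was dimmer: the 75th percentile of its processed signal was 73.2 to 117, against 252 to 390 on the other slides, and 41.9% to 48.0% of its spots were well above background, against 61.8% to 67.9%. To be tested, a probe had to be well above background on all arrays of CONT or all arrays of REST. This held for 18 of the 29 probes and for 8 of the 10 genes. For 1 of these 18 probes, of PDK1, it held in REST alone.

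During REST, the mRNA of both E1 subunits and of 2 of the 4 kinases was lower. By the tested probe of highest signal for each gene, PDHA1, PDHB, PDK2 and PDK3 fell, with a limma adjusted p (Padj) under 0.1 and the cow as a block. No gene of the set rose by that probe. PDK4 differed most between cows: its signal was higher during REST in the 4 cows of slides 1 and 2 and lower in both cows of slide 3. Of all 7932 genes tested, 16.2% passed in either direction, 6.95% higher and 9.27% lower, beside the 4 of 8 found here. The median change of the 8 genes was -0.33, against -0.009 over all tested genes. Without the cow as a block, 4.41% of genes passed, 2.81% lower, and of the 8 only PDHA1 did. The 4 genes that fell were lower in all 6 cows, as were 10.8% of tested genes. The count of 4 was 0 without cow 2 (4 genes at an unadjusted p under 0.05, limma) and 1 without cow 4. When any tested probe was allowed to count, 6 of the 8 genes passed, among 20.5% of all genes, and PDK4 and PC were added. Without the block that count was 1, among 5.69% of all genes.

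**Figure D1:**
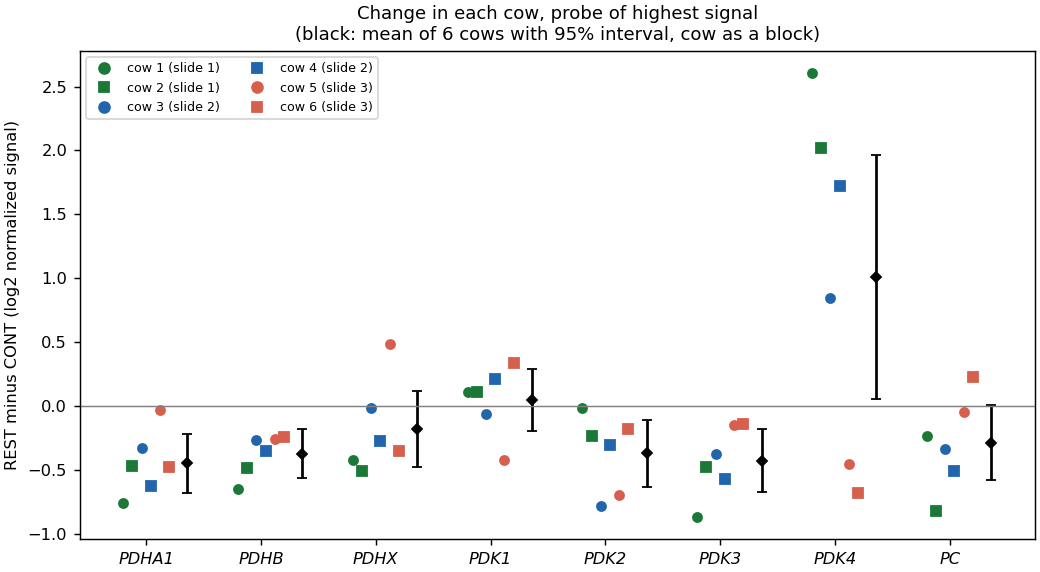
REST minus CONT (log2, vertical axis) for the 8 tested genes by the probe of highest signal, with 1 point per cow coloured by slide and the mean with its 95% confidence interval from the limma fit with the cow as a block. PDHA1, PDHB, PDK2 and PDK3 have all 6 cows below 0, whereas the cows of PDK4 run from -0.68 to 2.60.

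Among the subunits, PDHA1, which carries the sites that the kinases phosphorylate, passed both with and without the cow as a block. Its top probe (transcript NM_001101046) gave 2.997, 3.35 and 3.53 as the lowest, median and highest CONT signals. Its lowest and median REST signals were 2.70 and 2.86, and the highest, that of cow 3, lay just above the lowest CONT signal, that of cow 5. The groups therefore met only at their edges. The means were 3.31 ± 0.19 and 2.86 ± 0.13 (SD, n = 6), a change of -0.45 with SE 0.10 (Padj = 0.0365, limma), or 1.37-fold lower. PDHA1 was lower in 6 of 6 cows, by as little as -0.04 in cow 5 and as much as -0.76 in cow 1. The mean change was -0.62 on slide 1, -0.48 on slide 2 and -0.26 on slide 3.

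Without the block, its top probe had Padj = 0.0528 (limma). With the block, it did not pass without cow 2 (Padj = 0.104), without cow 4 (0.110) or with no filter on dim probes (0.142, limma). The other tested probe of PDHA1 changed by -0.93, with Padj = 0.0296, and 0.0513 without the block (limma), and it was lower in 5 of 6 cows. A pair of dimmer PDHA1 probes, well above background on 8 and 9 of 12 arrays, was not tested. They averaged -0.49 and -1.29, and the latter was lower in 6 of 6 cows with no overlap between groups. For scale, the groups lay apart, in either direction, for the top probes of 2.28% of tested genes, PDHA1 not among them. That share does not cover untested probes such as this one. All 4 PDHA1 probes thus gave a negative mean change, with sizes that differed from probe to probe.

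PDHB, the E1 beta subunit, had CONT signals of 1.75, 2.05 and 2.24 (lowest, median, highest) and REST signals of 1.43, 1.65 and 1.98 (NM_001035435). The ranges overlapped, but every cow was lower during REST, by -0.24 to -0.65. The mean went from 2.04 ± 0.17 to 1.66 ± 0.20 (SD, n = 6), a change of -0.38 with SE 0.08 (Padj = 0.0350, limma), or 1.298-fold lower. The change was -0.57, -0.31 and -0.25 on slides 1, 2 and 3. The other PDHB probe changed by -0.32 (Padj = 0.0963, limma) and was lower in 5 cows. Without the block, neither PDHB probe passed, with Padj = 0.111 for the top probe and 0.255 for the other (limma). With the block, the top probe did not pass without cow 2 (Padj = 0.109) or with no filter on dim probes (0.140, limma).

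The core subunits gave less. PDHX (NM_001075751) had a mean signal of -0.96 ± 0.28 in CONT and -1.14 ± 0.30 in REST (SD, n = 6). Its change of -0.18 had a 95% interval of -0.48 to 0.12 (Padj = 0.396, limma), with 5 cows lower and cow 5 higher by 0.48. The other tested PDHX probe changed by -0.09 (Padj = 0.693, limma), and the third was well above background on 5 of 12 arrays and was not tested. DLAT, the acetyltransferase core, had a single probe (NM_001205730) that was well above background on 4 CONT and 4 REST arrays and was not tested. Its mean signal was -2.33 ± 0.25 in CONT and -2.67 ± 0.61 in REST (SD, n = 6), with overlapping ranges and cow 4 higher by 0.69.

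**Figure D2:**
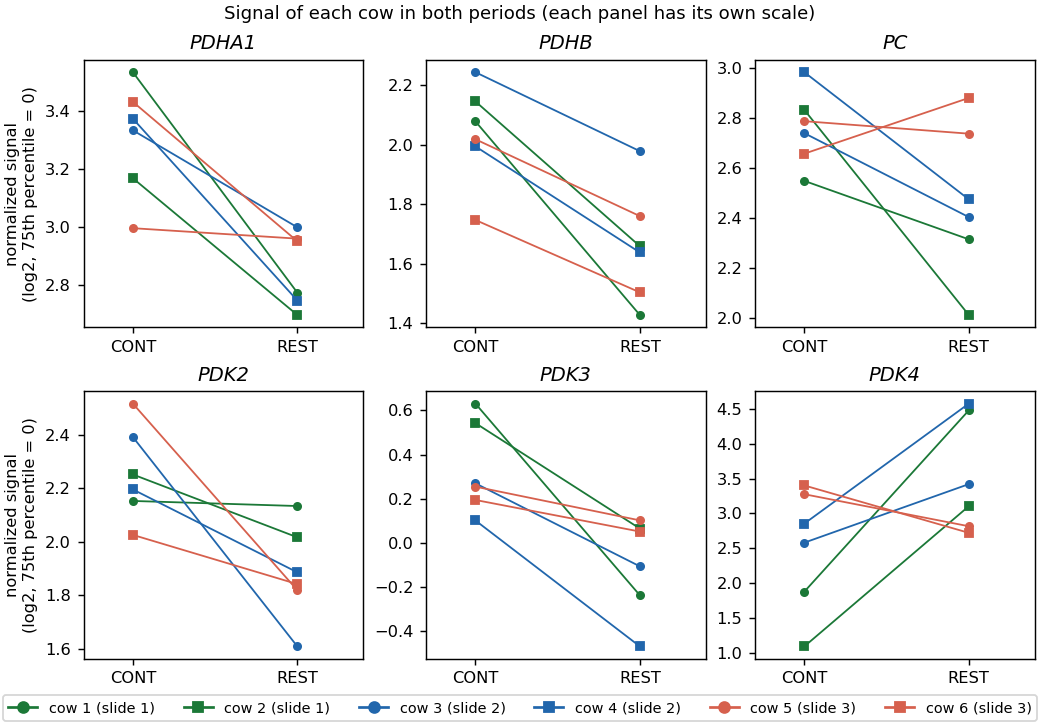
Normalized signal (log2, relative to the 75th percentile of the array) of 6 genes in CONT and REST, with a line for each cow coloured by slide and a separate vertical scale for each panel. The lines of PDHA1, PDHB, PDK2 and PDK3 all run downward, whereas those of PDK4 run upward for the cows of slides 1 and 2 and downward for those of slide 3.

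Of the kinases, PDK2, the isoform with the broadest tissue distribution, had CONT signals of 2.02, 2.22 and 2.52 and REST signals of 1.61, 1.86 and 2.13 (lowest, median, highest). The groups overlapped, and all 6 cows were lower during REST. The mean went from 2.26 ± 0.18 to 1.88 ± 0.18 (SD, n = 6), a change of -0.37 with SE 0.12 (Padj = 0.0817, limma), or 1.29-fold lower (NM_001075853). Cow 1 was nearly flat at -0.02, and cow 3 had the largest drop at -0.78. PDK2 passed narrowly: Padj was 0.110 without the block, and with the block it passed in only 1 of the 6 fits that left out a cow, the one without cow 1 (Padj = 0.0937, limma). A dimmer PDK2 probe, well above background on 8 of 12 arrays and not tested, averaged 0.10 with 3 cows higher and 3 lower.

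PDK3 (NM_001101934) went from 0.10, 0.26 and 0.63 in CONT to -0.47, -0.03 and 0.10 in REST (lowest, median, highest). The highest REST signal only reached the lowest CONT signal, and 6 of 6 cows were lower. The mean went from 0.33 ± 0.21 to -0.10 ± 0.22 (SD, n = 6), a change of -0.43 with SE 0.11 (Padj = 0.0465, limma), or 1.35-fold lower. The change was -0.67 on slide 1, -0.47 on slide 2 and -0.15 on slide 3. Without the block, Padj was 0.104 (limma). With the block, PDK3 did not pass without cow 1 (Padj = 0.106), cow 2 (0.128) or cow 4 (0.131, limma). It also did not pass with no filter on dim probes (Padj = 0.156, limma). A second PDK3 probe, on 8 of 12 arrays well above background and not tested, averaged -0.66 and was also lower in 6 of 6 cows.

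PDK1, known as a target of hypoxia signalling, gave no difference past the threshold. Its top probe (NM_001205957) had a mean of -0.43 ± 0.31 in CONT and -0.38 ± 0.16 in REST (SD, n = 6). The change of 0.04 had a 95% interval of -0.20 to 0.29 (Padj = 0.818, limma), with 4 cows higher and 2 lower. The other tested probe changed by 0.06 (Padj = 0.804, limma), and an untested one, on 9 of 12 arrays well above background, averaged -0.08.

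PDK4 (NM_001101883) had the widest spread of the set. In CONT, its signal was 1.88, 1.09, 2.58, 2.85, 3.28 and 3.40 in cows 1 to 6. In REST, it was 4.48, 3.10, 3.42, 4.58, 2.82 and 2.72 in the same order. The change was 2.60 and 2.02 in cows 1 and 2, 0.84 and 1.72 in cows 3 and 4, and -0.46 and -0.68 in cows 5 and 6. The cows of slides 1 and 2 were thus higher and both cows of slide 3 lower during REST. Over 6 cows, the mean went from 2.51 ± 0.89 to 3.52 ± 0.82 (SD), a change of 1.01 with SE 0.42 and a 95% interval of 0.05 to 1.96. It did not pass (Padj = 0.161, and 0.248 without the block, limma). The slides differed on both sides of the comparison: the mean CONT signal was 1.48, 2.72 and 3.34 on slides 1, 2 and 3, and the mean REST signal was 3.79, 3.998 and 2.77.

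The other probes of PDK4 had the same pattern. Of its 8 probes, all 8 were higher during REST in each of cows 1 to 4, all 8 were lower in cow 5, and 7 were lower in cow 6. The 6 tested probes changed by 1.01 to 1.23, and 1 of them passed (1.12, Padj = 0.0965, limma), but none without the block. These 6 probes read 1 transcript in the same RNA, and their correlation over the 12 arrays was 0.925 to 0.999. The pair that was not tested was well above background on 6 of 12 arrays each, and averaged 1.39 and 1.07.

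**Figure D3:**
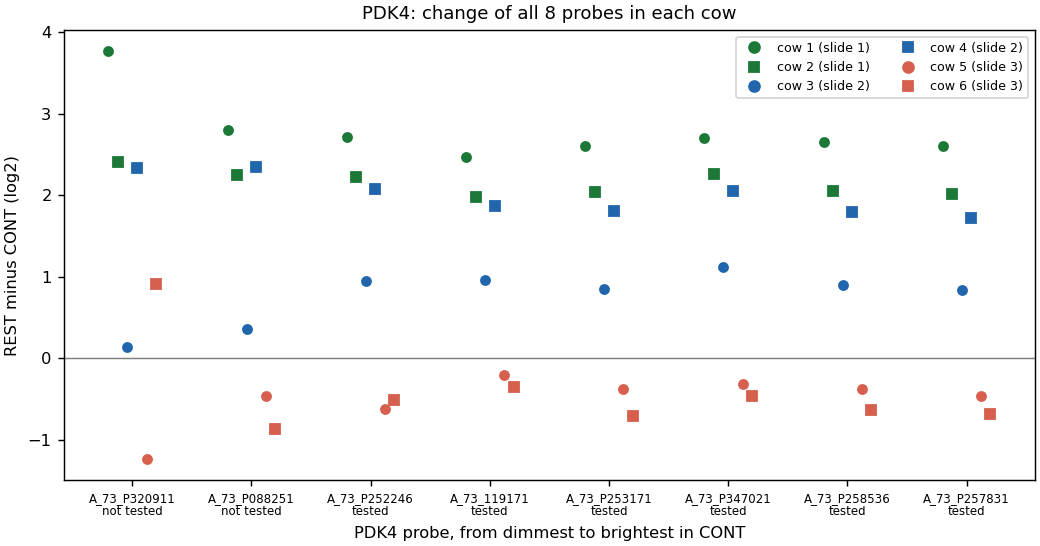
REST minus CONT (log2) in each cow for the 8 PDK4 probes, tested and not tested, with cows grouped by slide. The 6 tested probes lie between 0.84 and 2.71 in cows 1 to 4 and between -0.71 and -0.21 in cows 5 and 6.

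The mean PDK4 change was 1.80 on slides 1 and 2 and -0.57 on slide 3, a difference of 2.37. This difference was not tested, because it was noticed in these data and each slide held only 2 cows. For scale, the absolute difference between these slides had a median of 0.18 over the 7932 tested genes, and 5 genes, PDK4 among them, reached that of PDK4 (0.0630%). A further description is that 135 genes (1.70%) were higher in all 4 cows of slides 1 and 2 and lower in both cows of slide 3. Of the 3253 probes called without cow 5, 72.7% had the same sign in cow 5, and of the 2577 called without cow 6, 76.3% did in cow 6. For the other cows the share was 79.5% to 95.4%, of call lists of 1045 to 2332 probes, so these shares are not on 1 footing. The PDK4 probe of highest signal was well above background on all 4 arrays of slide 3. Cow and slide cannot be told apart here, and the part of the dimmer slide in the PDK4 values was not tested.

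**Figure D4:**
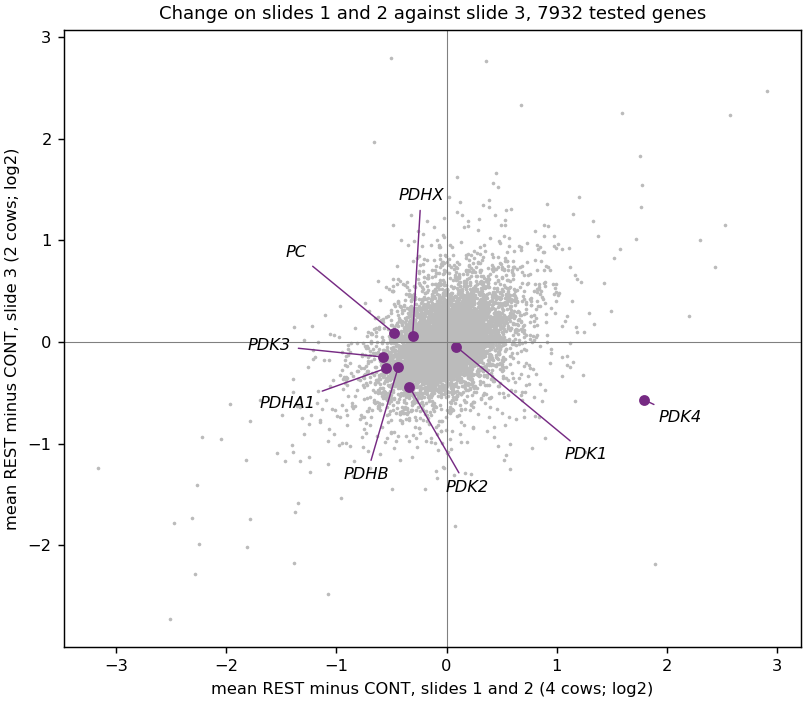
Mean REST minus CONT (log2) on slides 1 and 2 (4 cows, horizontal axis) against slide 3 (2 cows, vertical axis) for the 7932 tested genes in grey and the 8 tested genes of the set in purple. PDK4 lies at 1.80 and -0.57, apart from the cloud, whereas PDHA1, PDHB, PDK2 and PDK3 are negative on both axes.

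The changes of the 4 kinases were also set against each other within each cow, in 6 pairs of isoforms with an exact two-sided sign-flip test, whose smallest p with 6 cows is 0.0312. The PDK2 change minus the PDK1 change was -0.42 ± 0.21 (SD), below 0 in 6 of 6 cows, with an exact p of 0.0312 and 0.188 after adjustment over the 6 pairs. PDK4 minus PDK2 was 1.38 ± 1.24, above 0 in 5 of 6 cows (exact p = 0.0938, adjusted 0.188). PDK4 minus PDK3 was 1.44 ± 1.61, above 0 in 4 of 6 cows (exact p = 0.125, adjusted 0.188). PDK3 minus PDK1 was -0.48 ± 0.44, below 0 in 5 of 6 cows (exact p = 0.0625, adjusted 0.188). PDK4 minus PDK1 was 0.96 ± 1.30 (exact p = 0.188, adjusted 0.225), and PDK3 minus PDK2 was -0.06 ± 0.51 (exact p = 0.812, adjusted 0.812). No pair passed the adjustment at the threshold of 0.05 set for this test, but 6 cows leave little room for it. A single pair at the smallest p adjusts to 0.188 over the 6 pairs. A difference in change between isoforms was thus neither shown nor excluded.

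The phosphatase side could not be read. PDP1 (NM_001206353) was not well above background on any of the 12 arrays, and the same was true of PDPR, the regulatory subunit of the phosphatase. PDP2, the other catalytic subunit, had no probe named here. Among the other partners, DLD, the E3 subunit shared with the sister complexes, went from 0.56 to 0.36, a change of -0.20 that was lower in 6 of 6 cows but did not pass (Padj = 0.168, limma).

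PC (NM_177946), which makes oxaloacetate from pyruvate, had CONT signals of 2.55, 2.76 and 2.98 and REST signals of 2.01, 2.44 and 2.88 (lowest, median, highest). The groups overlapped, and 5 cows were lower, with cow 6 higher by 0.22. The mean went from 2.76 ± 0.15 to 2.47 ± 0.31 (SD, n = 6), a change of -0.29 with SE 0.13 that did not pass (Padj = 0.192, limma). The other tested PC probe changed by -0.43 and passed with the block (Padj = 0.0963) but not without it (Padj = 0.249, limma). The mean change of the top probe was -0.53 and -0.42 on slides 1 and 2 and 0.09 on slide 3, where cow 5 was at -0.05. The other tested probe was negative on all slides, at -0.72, -0.53 and -0.02. The third probe of PC was well above background on 2 of 12 arrays and was not tested.

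In the entry of pyruvate, the mitochondrial carrier subunits differed from each other in whether they passed. MPC2 went from 5.19 ± 0.26 to 4.57 ± 0.20 (SD, n = 6) and fell by 0.62 with SE 0.11, in 6 of 6 cows (Padj = 0.0193, and 0.0373 without the block, limma). MPC1 changed by -0.08 (Padj = 0.563, limma). Of the 9 tested genes of pyruvate supply and other fates, which include lactate dehydrogenase and malic enzyme, MPC2 alone passed, and their median change was -0.08. Of the 4 genes tested for PDC partners and cofactors, none passed (limma), with a median change of -0.15, and DLD alone had an unadjusted p under 0.05.

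The sister 2-oxoacid dehydrogenases are built like the PDC and use the same E3. Of their 8 tested genes, 3 fell, none rose, and the median change was -0.16. BCKDHA, the E1 alpha subunit of the branched-chain complex, fell by 0.74 (Padj = 0.00962, and 0.00640 without the block, limma). OGDH, the E1 of the 2-oxoglutarate complex, fell by 0.42 (Padj = 0.0498), and BCKDK, the kinase that switches off the branched-chain complex, fell by 0.27 (Padj = 0.0786, limma). Without the block, BCKDHA and OGDH still passed and BCKDK did not (Padj = 0.191, limma).

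The acetyl-CoA and citrate genes included larger changes than the PDC. Of 5 tested, 3 fell and none rose, with a median change of -0.28. ACSS2 and ACSS1, the cytosolic and mitochondrial enzymes that activate acetate, fell by 1.60 and 0.89 (Padj = 0.00465 for both, limma) in 6 of 6 cows each. CS, the citrate synthase that joins acetyl-CoA to oxaloacetate, fell by 0.28 (Padj = 0.0770, limma). Without the block, ACSS2 and ACSS1 still passed and CS did not (Padj = 0.184, limma).

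Among the other biotin enzymes, which share the cofactor of PC, 4 of 5 tested genes fell and none rose, with a median of -0.30. PCCB of propionyl-CoA carboxylase fell by 0.76 (Padj = 0.00594, limma) and ACACA, the acetyl-CoA carboxylase of fatty acid synthesis, by 0.39 (Padj = 0.0603, limma). PCCA, the other propionyl-CoA carboxylase subunit, and MCCC1 of methylcrotonyl-CoA carboxylase fell by 0.30 and 0.27 (Padj = 0.0867 and 0.0699, limma). Without the block, PCCB alone of these 4 passed (Padj = 0.0110), with Padj of 0.230 to 0.402 for the others (limma). These list counts stand beside the 9.27% of all tested genes that passed as lower with the block and 2.81% without it. Across these 5 lists and the list of regulators, 13 genes passed with the block and 6 without it.

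**Figure D5:**
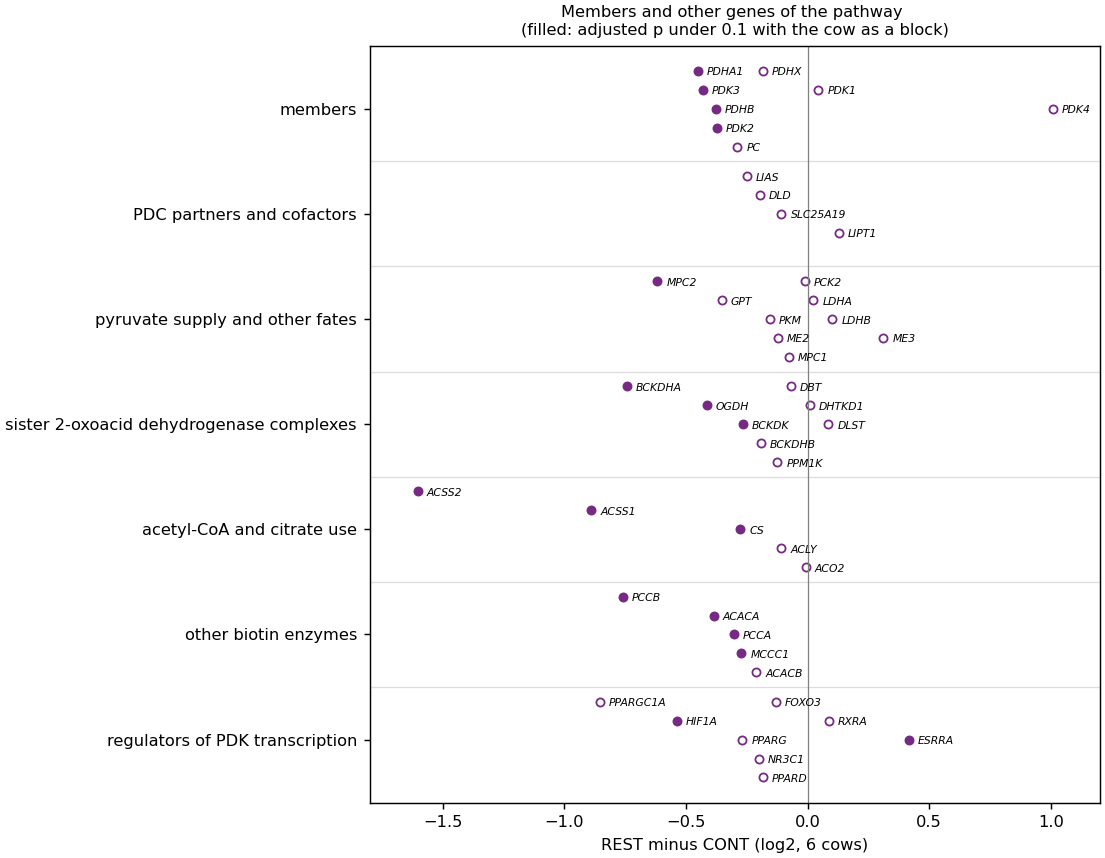
REST minus CONT (log2, horizontal axis) for the tested genes of the set and of 6 lists of related genes, with 1 point per gene by its probe of highest signal, filled where the limma adjusted p was under 0.1 with the cow as a block. In the lists, 12 of the 13 filled points lie below 0, from -1.60 for ACSS2 upward, and ESRRA at 0.42 lies above it.

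Of 8 tested regulators of PDK transcription, 1 rose and 1 fell, with a median of -0.19. These counts are near the shares over all tested genes, 6.95% higher and 9.27% lower. ESRRA, a nuclear receptor known to act on the PDK4 promoter, rose by 0.42 in 6 of 6 cows, those of slide 3 included (Padj = 0.0497, and 0.257 without the block, limma). HIF1A, the hypoxia factor whose known targets include PDK1, fell by 0.54 in 6 of 6 cows (Padj = 0.0294, and 0.152 without the block, limma). PPARGC1A, a coactivator of ESRRA, changed by -0.85 and did not pass (Padj = 0.108, limma).

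The genes whose signal ran closest to that of PDK4 were found by Pearson correlation over the 12 arrays, which are 6 cows sampled in both periods. Of 7923 genes compared, the highest r were those of RGCC (0.926), DUSP1 (0.918), TXNIP (0.898), TOB2 (0.892) and UIMC1 (0.874). TXNIP, a glucose-responsive inhibitor of thioredoxin, changed by 0.82 and passed with the block (Padj = 0.0872) but not without it (Padj = 0.162, limma), and DUSP1, a MAP kinase phosphatase, changed by 0.68 without passing (Padj = 0.138, limma). The lowest r were those of DDX39A (-0.843), CHID1 (-0.833), NAV3 (-0.832), SPCS3 (-0.809) and ELOA (-0.800). Of these, only DDX39A passed (-0.64, Padj = 0.0920, limma).

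In a biopsy of mixed tissue, fewer cells of a type and less RNA per cell cannot be told apart. Milk protein genes were strongly detected on every array, with a summed signal of 4229 to 5455 times the 75th percentile in CONT (median 4701) and 3414 to 4479 in REST (median 4175). All 5 tested were lower in 6 of 6 cows, as were PDHA1, PDHB, PDK2 and PDK3, and the casein genes CSN1S1 (-0.26, Padj = 0.0912) and CSN3 (-0.28, Padj = 0.0776, limma) fell. Beside the marker counts that follow stand the 6.95% of all tested genes that rose and the 9.27% that fell with the block. Of 6 tested luminal epithelial markers, KRT8 and KRT18 rose, and of 6 endothelial markers, VWF and CLDN5 rose. By sign alone, 4 luminal markers were higher and 2 lower (median 0.23), and 5 endothelial markers were higher and 1 lower (median 0.22). The summed endothelial signal was 14.2 to 23.5 in CONT and 23.0 to 31.1 in REST, in multiples of the 75th percentile. Of 6 tested myoepithelial markers, ACTA2 and CNN1 fell, of 6 leukocyte markers 1 rose (CD3E), and of 6 fibroblast markers none passed. The myoepithelial markers were split, with 3 lower and 3 higher (median -0.04). Of the leukocyte markers, 4 were lower and 2 higher (median -0.07), and of the fibroblast markers, 4 were lower and 2 higher (median -0.36). Of the erythrocyte markers, HBA, the only one tested, changed by -0.33, with 5 of 6 cows lower (Padj = 0.108, limma). HBB, well above background on 2 CONT arrays and no REST array and so not tested, was lower in 6 of 6 cows. The summed erythrocyte signal was 13.7 to 20.1 in CONT and 10.4 to 20.4 in REST. Without the block, VWF and CLDN5 kept their calls (Padj = 0.0539 and 0.0569, limma), and all other calls among these markers were lost, KRT8 with Padj = 0.133 and KRT18 with 0.508 (limma). The part of these cell types in the changes of the PDC genes was not tested.

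PDK4 is abundant in muscle and fat. The muscle markers were mixed in direction, whereas the 4 adipocyte markers on the arrays all had a lower mean in REST. Of the muscle markers, CKM, ACTA1 and DES were well above background on all 12 arrays, and CKM, the muscle creatine kinase, fell by 0.36 in 5 of 6 cows (Padj = 0.0702, and 0.474 without the block, limma). DES changed by 0.37, with 5 of 6 cows higher, and did not pass (Padj = 0.195), and ACTA1 changed by 0.02 (Padj = 0.899, limma), so that the median of the 3 was 0.02. The summed skeletal muscle signal was 5.01 to 6.98 in CONT and 5.09 to 8.24 in REST, whereas MYH1 was well above background on no array, MB on 1, TNNT3 on 3, MYH2 on 4 and MYH7 on 8. Of the adipocyte markers, PLIN1 was well above background on no array, LEP on 4 and CIDEC on 8, so they were not tested. PLIN1 and LEP were lower in 5 of 6 cows each and CIDEC in 4 of 6. CIDEA, which lactating epithelium also expresses, fell by 0.27 in 6 of 6 cows (Padj = 0.0782, and 0.816 without the block, limma). The summed adipocyte signal, almost all from CIDEA, was 47.2 to 263 in CONT and 38.0 to 198 in REST. Their part in the PDK4 values was not tested.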

How the data were processed

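Total RNA of 12 mammary biopsies was amplified, and the Cy3-labelled cRNA was hybridised to 12 arrays on 3 slides. Per the file headers, the authors quantified the spots as intensities (Agilent Feature Extraction 11). The deposited processed signal is a background-subtracted, spatially detrended intensity on a linear scale, not yet scaled between arrays, and the deposited table of the series holds the same intensities. Log2 signals were shifted here by the 75th percentile of each array's non-control spots. Marked spots (1 to 13 per array) were left out, and repeat spots (50 probes) were averaged. Symbols were taken from RefSeq transcripts (27131 of 43653 probes, 62.2%). No spot was saturated. The number of arrays limits the precision.

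REST was compared with CONT using limma 3.58.1 in R 4.3.3 over 19406 probes, with Benjamini-Hochberg adjustment and a threshold of 0.1, as in the methods of the study, which name no pairing. The cow was a block, because each number is 1 animal. Deviations of the same cow correlated at 0.356 to 0.574, and those of different cows at -0.326 to 0.134. For genes with several probes, the tested probe of highest mean signal was used, with the others by range and count. The script was checked on simulated data, in which the set changes were larger than those of PDHA1, PDHB, PDK2 and PDK3. Recovery of changes of their size was not checked. The genes named were the 10 members, their partners DLD, PDP2, PDPR, MPC1 and MPC2, up to 4 called genes of each list and the 5 genes of highest and lowest correlation with PDK4. CD3E, KRT8, KRT18, VWF, CLDN5, CSN1S1, CSN3, ACTA2, CNN1, HBA, HBB, PPARGC1A and the muscle and adipocyte markers were named in addition. One gene of the lists is not reported here. The members and lists were chosen with earlier results of these data known. Alternatives changed the block, normalization, background correction, filter, test and cows. No sequences or genome positions are given, because those of the array's build were not used here.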

Additional observations from a re-analysis of the deposited data

Results flagged for a closer look

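One value of the set stood apart within its group. For the PDHX probe that is not the brightest, the CONT signal of cow 5 was -1.72, whereas the other CONT signals were -1.24 to -0.99, and its gap divided by the range of the group was 0.649, above the critical value of 0.625 for 6 samples. Of 36 groups of values examined, this was 1, and chance gives about 1 in 20, or 1.8 of 36.

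The PDK4 change differed between slides by 2.37 (log2), with every cow of slides 1 and 2 higher and both cows of slide 3 lower during REST. The difference was not tested.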

How the results depend on the processing

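Of 19406 probes, 3105 passed when the cow was the block. Without the replicate block 837 passed, with the slide as the block 1899, with no filter on dim probes 388 and with a plain 2-sample test per probe 723. When a cow was left out in turn, 1045 to 3253 passed with the block and 194 to 616 without it.

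Of the set, 4 genes passed with the block, 1 without it (PDHA1), 1 in the plain test, and 0 with no filter on dim probes, where limma still gave 4 genes an unadjusted p under 0.05. Leaving out a cow gave 0 to 5 genes with the block and 0 to 1 without it. The count was 0 without cow 2 (4 genes at an unadjusted p under 0.05) and 1 without cow 4. By any tested probe, it was 6 with the block and 1 without it, and a cow left out gave 1 to 6 with the block and 0 to 2 without it. In the lists of related genes, 13 passed with the block, 6 without it, 4 with no filter, 6 in the plain test and 9 on slides 1 and 2 alone, and a cow left out gave 6 to 12 with the block and 4 to 6 without it.

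PDHA1, PDHB, PDK2 and PDK3 were lower under every alternative. With the block, PDHA1 was no longer called without cow 2 or 4 (Padj = 0.104 and 0.110, limma), PDHB without cow 2 (0.109), and PDK3 without cow 1, 2 or 4 (0.106 to 0.131). PDK2 was also lost with normexp background correction (-0.23, Padj = 0.140). PDK4 was called with the cow as a random block (Padj = 0.0966), with normexp (0.0847), and without cow 5 (1.301, 0.0948) or cow 6 (1.35, 0.0945). PDHX was called without cow 5 (-0.32, Padj = 0.0869) and PC on slides 1 and 2 alone (-0.48, Padj = 0.0938), where PDK2 was lost (-0.34, Padj = 0.206). PDK1 changed sign without cow 6 (-0.013 with and without the block, with a highest value of 0.14 without cow 5), and PDK3 minus PDK2 without cow 1 (0.10, and as low as -0.18 without cow 5). With normexp, PDK2 minus PDK1 and PDK3 minus PDK1 had an adjusted p of 0.0938 each (exact sign-flip test), still above 0.05. Over the 26 alternatives, Padj ran from 0.00795 to 0.208 for PDHA1, 0.0150 to 0.318 for PDHB, 0.0280 to 0.284 for PDK2, 0.0175 to 0.311 for PDK3, 0.0366 to 0.559 for PDK4, 0.0869 to 0.857 for PDHX and 0.0938 to 0.668 for PC. The lowest PDK4 value comes from slides 1 and 2 alone, a fit that leaves out the cows in which PDK4 was lower and so supports nothing. The PDK4 calls without cow 5 or cow 6 each leave out 1 of those cows. The PDHX call without cow 5 and the PC call on slides 1 and 2 leave out the only cow higher by the top probe (cow 5 and cow 6). These calls support nothing either. The causes were not tested. The fits without slide 3, and those without the block that left out a cow, were chosen after seeing the data. Naming probes by a gene name column was not run, since the files used here have none. Signal over background left DLAT, PDP1 and 11 of 29 probes untested.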

Other observations

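The 4 other genes whose change differed between slides 1 and 2 and slide 3 by at least as much as that of PDK4 were TRIB3, IDO1, CXCL11 and CCL21, named after their values were seen. TRIB3, a pseudokinase of the amino acid stress response, averaged 1.90 on slides 1 and 2 and -2.18 on slide 3, the same order of signs as PDK4. IDO1 and CXCL11, both interferon-responsive genes, averaged -0.50 and -0.66 on slides 1 and 2 and 2.79 and 1.97 on slide 3. CCL21, a chemokine of lymphatic endothelium, averaged 0.36 and 2.77. These differences were not tested.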
